A study of Danio rerio with 4 samples.

Results

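The axon guidance genes described here are the zebrafish ephrins and Eph receptors, semaphorins, plexins and neuropilins, Slits and Robo receptors, and netrins and Unc5 receptors. They were chosen by the first letters of the gene symbol, which takes in 85 of 27423 rows of the deposited expression table and 79 distinct symbols. Several rows share 1 gene: *plxna1* and *unc5c* have 3 rows each and *efna5b* has 2. The 2 rows with the symbol *sema4g* are different genes. The symbol rule also takes in *unc50*, which is not an Unc5 receptor but encodes a Golgi membrane protein, and its values are given apart from the Unc5 receptors.

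RNA of pooled whole zebrafish larvae at 48 hours post fertilization (hpf) was sequenced in 4 libraries. The *gsp* mutant library came from larvae homozygous for *goosepimples*, a mutation of the gene of Myosin Vb, a motor that carries vesicles along actin. The *gsp* sibling library held heterozygous and homozygous wild-type larvae of the same crosses together. The *rhs* mutant library came from larvae homozygous for *romeharsha*, whose gene is not known, and the *rhs* sibling library again mixed heterozygous and homozygous wild-type larvae. Mutants were picked out from their siblings before fixation, and no larva was treated. The study used both lines because rounded cells appear in the periderm, the outermost skin layer, of both mutants, and the axon guidance genes were not its subject.

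Guidance genes steer growing axons, and also migrating cells and vessel sprouts, by attraction or repulsion at the cell surface. Ephrins are membrane-bound ligands that collapse or hold apart cells carrying Eph receptor tyrosine kinases, the A class binding mainly EphA and the B class mainly EphB receptors. Semaphorins signal through plexins, with neuropilins as co-receptors for the secreted class 3. Slits repel axons through Robo receptors, and netrins attract through Dcc and repel through Unc5 receptors. At this stage the zebrafish brain is laying down its main tracts, retinal axons are reaching the tectum, and the trunk vessels are remodelling, so that many of these genes are active in neurons, glia and endothelium alike.

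Values are estimated counts per row, as deposited without scaling between libraries, and the lowest deposited value is a floor of 1. The totals lay between 106188690 and 118680429 per library, of which the axon guidance rows made up 0.154% to 0.177%. As each condition is a single library, the differences have no replicate check and were not tested. Each interval given with a ratio is an exact Clopper-Pearson interval at 95%, which covers counting error only and holds only as far as the values are counts. In RNA of whole larvae, fewer cells of a type and less RNA per cell cannot be told apart. The gene of Myosin Vb, *myo5b*, was listed at the floor in both *gsp* libraries and at 193 and 87.8 in the *rhs* ones, so it could not check the *gsp* labels. Each of neurons, glia, endothelium, skin, muscle and neural crest had markers present in the 4 libraries, though some single markers were at the floor.

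Ratios were formed for the 55 axon guidance rows with an estimated count of at least 100 in all 4 libraries, a minimum that 13633 rows of the table passed. Just inside it were *sema3h*, at 130 to 207, and the main row of *efna5b*, at 134 to 202. Of the other 30 rows, 21 were at the floor in every library (24.7% of the axon guidance rows, beside 36.2% of all rows). They included the receptor genes *ephb1*, *ephb2*, *epha6*, *epha8*, *unc5d* and *plxnc1*, and the ligand genes *ntn2*, *ntn4* and *sema4d*. Another 4 rows were detected below the minimum in at least 1 library: *unc5a*, *sema3c*, *sema7a* and the second row of *efna5b*. *sema7a*, a membrane-anchored semaphorin, was at 72.1 in the *gsp* mutant, 89.6 in the *gsp* sibling, 84.4 in the *rhs* mutant and 194 in its sibling, so that the *rhs* sibling stood above the 3 other libraries.

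The remaining 5 rows were at the floor in both libraries of 1 line and detected in both of the other. *plxnb1a* was at the floor in *gsp*, beside 328 in *rhs* mutants and 485 in *rhs* siblings. *sema5b* was at the floor in *gsp*, beside 51.2 in *rhs* mutants and 108 in *rhs* siblings. *sema3fb* showed the opposite, at 446 in the *gsp* mutant, 544 in the *gsp* sibling and the floor in both *rhs* libraries. Of the 3 rows of *unc5c*, 1 was at the floor in *gsp* only (142 and 131 in the *rhs* mutant and sibling) and 1 in *rhs* only (43.9 and 46.9 in the *gsp* mutant and sibling). Mutant and sibling of a line thus shared the floor in all 5. Over all rows of the table, 618 (2.25%) were at the floor in both *gsp* libraries only and 630 (2.30%) in both *rhs* libraries only. A floor in exactly 1 of mutant and sibling was seen in 0 axon guidance rows, beside 0.686% of all rows in *gsp* and 0.780% in *rhs*.

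A gene was called higher or lower where its ratio was at least 1.5-fold. In *gsp* mutants 2 of 55 axon guidance genes were called higher, *epha2* and *plxnd1*, which is 3.64% beside 4.8% of all rows, and 0 were called lower, beside 4.34% of all rows. In *rhs* mutants 2 were called higher, *epha2* and *efna1b* (6.14% of all rows), and 9 were called lower, which is 16.4% beside 11.6% of all rows. The 9 were the receptor genes *epha4b*, *robo2* and *nrp2b* and the ligand genes *efna5b*, *efnb1*, *ntn1b*, *slit1b*, *sema5a* and *sema6a*. The other 43 genes stayed within 1.5-fold in both mutants.

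The lower calls in *rhs* depended on how the libraries were scaled. For *gsp* the median row of the table had a log2 ratio of -0.11, and for *rhs* -0.20. After centring on that median, the 2 higher and 9 lower calls in *rhs* became 2 higher (9.74% of all rows) and 0 lower (4.67% of all rows), and in *gsp* they stayed at 2 higher (6.32%) and 0 lower (2.62%). With TMM scaling the split in *rhs* was 2 higher (8.05% of all rows) and 3 lower (6.94%), namely *epha4b*, *robo2* and *sema5a*, and with division by the library total it was 2 higher (7.21%) and 4 lower (8.81%), with *ntn1b* added. Both higher calls in *rhs*, *epha2* and *efna1b*, were past 1.5-fold under all of these scalings. The median log2 ratio over the 55 genes was -0.01 in *gsp* and -0.30 in *rhs*, so relative to the median row the axon guidance genes stood 0.10 above in *gsp* and 0.10 below in *rhs* (medians of the centred ratios, 0.10 and -0.10). The SD of the log2 ratios over the 55 genes was 0.26 in *gsp* and 0.32 in *rhs*, smaller than over all rows (0.42 and 0.50).

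**Figure D1:**
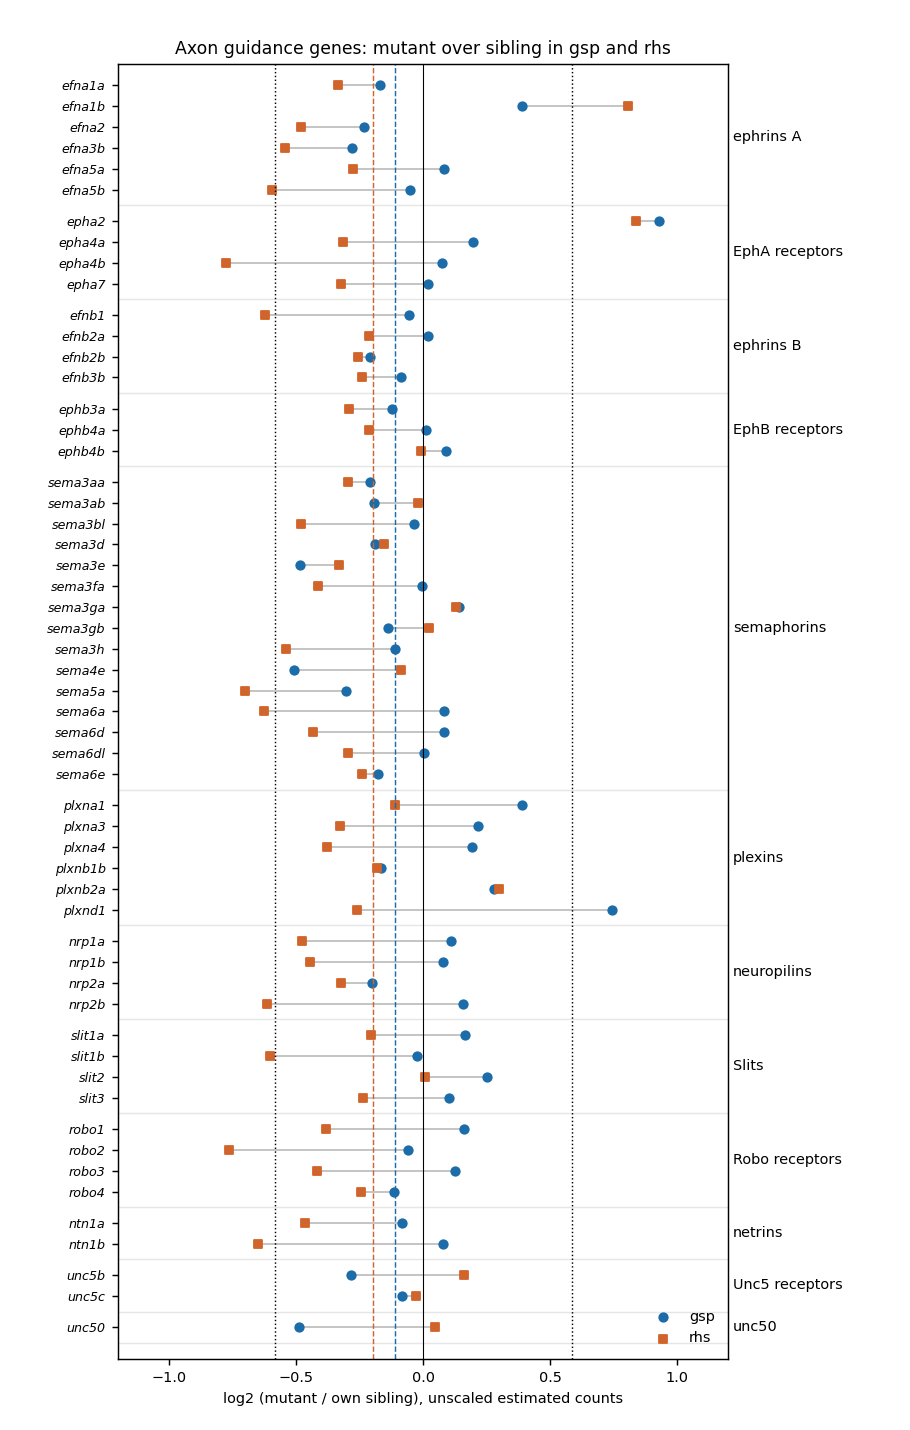
Log2 ratio of mutant over own sibling for the 55 axon guidance genes, in *gsp* (blue circles) and *rhs* (orange squares), grouped by family on the vertical axis, 1 library per condition and no error bars. Dotted lines mark 1.5-fold and dashed lines the median of all rows, -0.11 in *gsp* and -0.20 in *rhs*; the *rhs* symbol lies to the left of the *gsp* symbol in 45 of 55 genes, and *epha2* and *efna1b* lie far to the right in *rhs*.

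The rows of the Eph and ephrin families held both the highest ratios and the lowest in *rhs*. *epha2* encodes an EphA receptor that in mammals is prominent in epithelia, the epidermis included, and lies on chromosome 6 of the danRer7 build from 45811779 to 45842884. It was at 6336 in the *gsp* mutant, 3328 in the *gsp* sibling, 8882 in the *rhs* mutant and 4976 in its sibling. Both mutants stood above both siblings. The ratio was 1.90 in *gsp* (counting interval 1.83 to 1.99) and 1.79 in *rhs* (1.72 to 1.85). The siblings themselves differed by a ratio of 0.669 (*gsp* over *rhs*), nearly the 1.5-fold used for calls, and against the *rhs* sibling the *gsp* mutant was at 1.27, no longer past it. *epha2* was the only axon guidance gene called higher in both mutants, beside 3.39% of all rows, and 0 were called lower in both, beside 0.836%.

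*efna1b*, on chromosome 16 from 25522119 to 25537121, is 1 of 2 genes for ephrin A1, a main ligand of EphA2 in mammals. It was at 3473 in the *gsp* mutant, 2652 in the *gsp* sibling, 4654 in the *rhs* mutant and 2659 in its sibling. The siblings were level and both mutants stood above them, with ratios of 1.31 in *gsp* (1.24 to 1.38) and 1.75 in *rhs* (1.67 to 1.84). Its duplicate *efna1a* went the other way, at 4348 and 4890 in the *gsp* mutant and sibling and 2808 and 3543 in the *rhs* mutant and sibling, with ratios of 0.889 and 0.793. Only 3 of 55 axon guidance genes had both mutants above both siblings (5.45%, beside 10.3% of all rows), and *epha2* and *efna1b* were 2 of them. The third was *plxnb2a*, a B-type plexin, at 4576, 3771, 4633 and 3766 in the *gsp* mutant, *gsp* sibling, *rhs* mutant and *rhs* sibling, with ratios of 1.21 and 1.23.

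The other EphA receptors were not higher in *rhs*. *epha4b*, a receptor of both ephrin classes, had the lowest *rhs* ratio of the 55 genes. It lies on chromosome 2 from 40081899 to 40266727 and was at 1822 in the *gsp* mutant, 1730 in the *gsp* sibling, 1445 in the *rhs* mutant and 2472 in its sibling. The *rhs* mutant was the lowest library and the *rhs* sibling the highest, with the *gsp* libraries between. The ratio was 1.05 in *gsp* (0.986 to 1.13) and 0.584 in *rhs* (0.547 to 0.624), and with the *gsp* sibling as control the *rhs* mutant was at 0.835. Its duplicate *epha4a*, at 4543, 3963, 4245 and 5278 in the same order of libraries, had ratios of 1.15 and 0.804. *epha7*, a receptor of A-class ephrins, differed by line more than by mutation, and its values are given with the sibling comparison.

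Among the A-class ligands, *efna5a* and *efna5b* encode ephrin A5, a repellent of retinal axons in the tectum. *efna5a* was at 3595 in the *gsp* mutant, 3400 in the *gsp* sibling, 4054 in the *rhs* mutant and 4908 in its sibling (ratios 1.06 and 0.826). The main *efna5b* row, on chromosome 8 from 1459817 to 1480714, was at 168, 174, 134 and 202 in that order. Its *rhs* ratio of 0.663 (0.529 to 0.829) was the called value nearest to the threshold and was past it in 1 of 9 settings tried. The nearest uncalled values were *efna3b*, another A-class ligand, at 0.687, and *sema3h* at 0.688. Of 6 ephrin A genes with ratios, 5 were below 1 in *rhs*, beside 73.1% of all rows. Their median log2 ratio was -0.41 in *rhs* and -0.11 in *gsp*.

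All 4 B-class ligands had *rhs* ratios below 1, as had 73.1% of all rows. Their median log2 ratio was -0.25, and 1 was called. That was *efnb1*, on chromosome 5 from 37871179 to 37928851, at 3560 in the *gsp* mutant, 3696 in the *gsp* sibling, 2851 in the *rhs* mutant and 4391 in its sibling. Its ratio was 0.963 in *gsp* (0.920 to 1.01) and 0.649 in *rhs* (0.619 to 0.681). *efnb2a*, which marks arterial endothelium and hindbrain segments, varied little, at 7124, 7022, 6876 and 7966 (ratios 1.01 and 0.863). *ephb4a*, its receptor on the venous side, was at 4572, 4538, 3581 and 4146 (ratios 1.01 and 0.864), so this ligand and receptor had nearly equal ratios in each line. The part of vessels in these whole-larva values was not tested. *ephb3a* and *ephb4b*, the other EphB receptors with ratios, were at 0.816 and 0.995 in *rhs*. The model of *ephb3a* overlaps another row, and whether strand was used in counting is not stated.

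**Figure D2:**
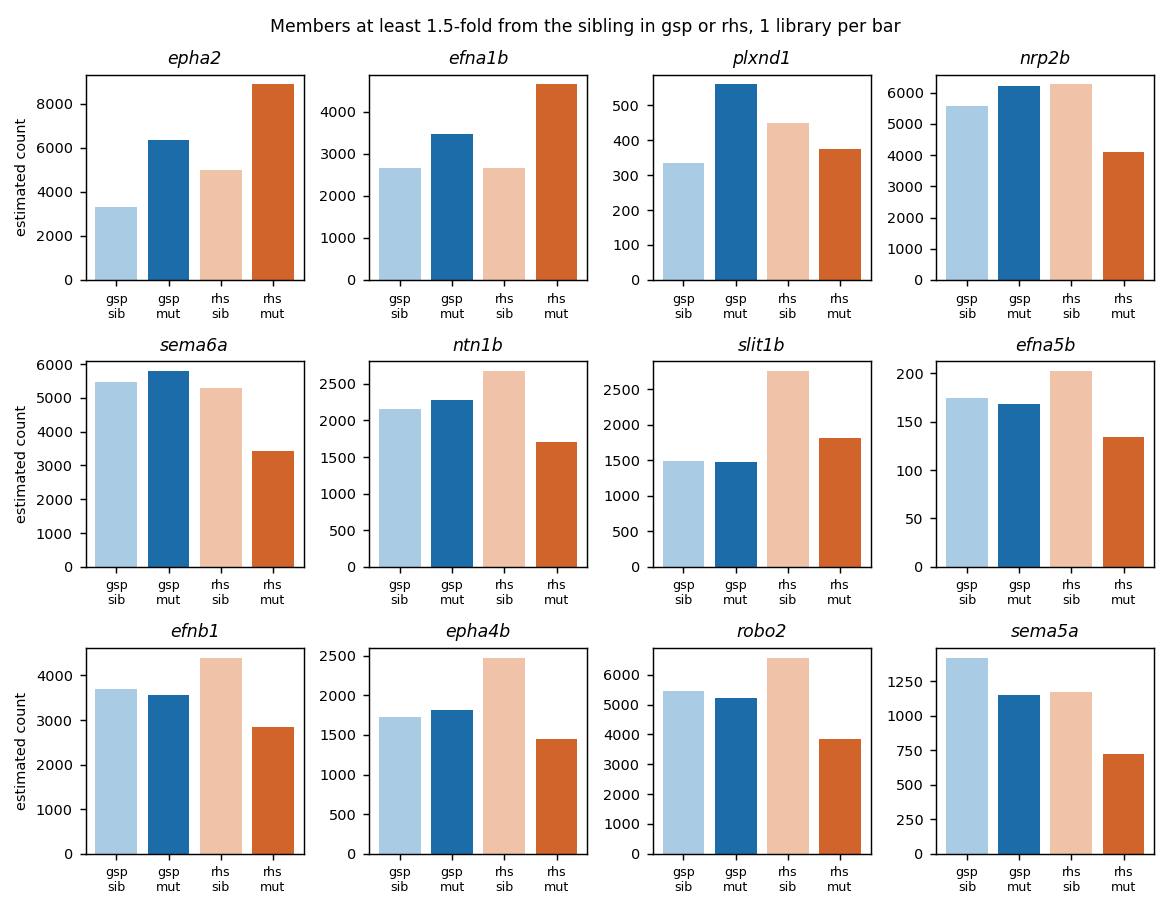
Estimated counts of the 12 axon guidance genes at least 1.5-fold from the sibling in either mutant, 1 bar per library: *gsp* sibling and mutant in light and dark blue, *rhs* sibling and mutant in light and dark orange. Each vertical axis starts at 0 and has its own scale; *epha2* and *efna1b* are higher in both mutants, *plxnd1* is highest in the *gsp* mutant, and in 8 of the 9 genes called lower in *rhs* the *rhs* mutant is the lowest of the 4 libraries.

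Of 15 semaphorin genes with ratios, 11 were below 1 in *gsp* (65.4% of all rows) and 13 in *rhs* (73.1% of all rows). Their median log2 ratios were -0.14 and -0.30, and 2 were called, both lower in *rhs*. Both encode transmembrane semaphorins. *sema5a*, on chromosome 24 from 17096111 to 17255506, was at 1148 in the *gsp* mutant, 1418 in the *gsp* sibling, 722 in the *rhs* mutant and 1175 in its sibling. Both mutants stood below both siblings, the *gsp* mutant only just below the *rhs* sibling, with ratios of 0.810 (0.748 to 0.876) and 0.614 (0.559 to 0.675). *sema6a*, whose protein signals through A-type plexins, lies on chromosome 8 from 205735 to 291692 and was at 5791, 5467, 3417 and 5281. There the *rhs* mutant stood apart and the 3 other libraries lay close together, with ratios of 1.06 in *gsp* (1.02 to 1.1) and 0.647 in *rhs* (0.620 to 0.676). With the *gsp* sibling as control the *rhs* mutant was at 0.509 for *sema5a* and 0.625 for *sema6a*, and these were the only 2 of the 9 lower calls past 1.5-fold against either sibling.

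The secreted class 3 semaphorins with ratios stayed within 1.5-fold of their siblings. Their *rhs* ratios ran from 0.688 in *sema3h* to 1.09 in *sema3ga*. *sema3aa*, a repellent of many sensory and motor axons, was at 9268 in the *gsp* mutant, 10704 in the *gsp* sibling, 8457 in the *rhs* mutant and 10384 in its sibling (ratios 0.866 and 0.814). *sema3ab* had ratios of 0.874 and 0.986, and *sema3d*, which guides retinal and commissural axons in zebrafish, 0.878 and 0.898. *sema3ga* was the semaphorin with the highest mean ratio, at 1.1 in *gsp* and 1.09 in *rhs*. The lowest semaphorin ratios in *gsp* were those of *sema4e*, at 0.703 (0.664 to 0.743), and *sema3e*, at 0.715 (0.687 to 0.743), and neither was called. These last 2 genes fell outside the rule for named genes and were picked after their values were seen. The model of *sema4e* overlaps another row on the same strand.

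Plexins, the semaphorin receptors, held the largest contrast between the lines. *plxnd1* encodes the plexin of endothelium, which in zebrafish keeps sprouting trunk vessels to their paths, and its row covers chromosome 8 from 56155957 to 56171275. It was at 560 in the *gsp* mutant, 334 in the *gsp* sibling, 376 in the *rhs* mutant and 450 in its sibling. The *gsp* mutant was the highest library and the *gsp* sibling the lowest, with both *rhs* libraries between them. The ratio was 1.67 in *gsp* (1.46 to 1.93) and 0.836 in *rhs* (0.727 to 0.960), and with the *rhs* sibling as control the *gsp* mutant was at 1.24. Of 15 endothelial markers, 1 was called higher in *gsp* (*sox7*, ratio 2.19) and 0 lower, beside 4.8% and 4.34% of all rows. Their median log2 ratio in *gsp* was -0.03, and 0.07 after median-centring. The part of endothelium in the *plxnd1* ratio was not tested. Of 6 plexins with ratios, 5 were above 1 in *gsp* and 5 were below 1 in *rhs*. Over all rows, 65.4% were below 1 in *gsp* and 73.1% in *rhs*. *plxna3*, which in zebrafish guides motor axons out of the spinal cord, had ratios of 1.16 and 0.796, and *plxna4* had 1.14 and 0.768.

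Neuropilins bind class 3 semaphorins and, on endothelium, vascular endothelial growth factor. All 4 had *rhs* ratios below 1, as had 73.1% of all rows. Their median log2 ratio was -0.46 in *rhs* and 0.09 in *gsp*. *nrp2b*, on chromosome 9 from 14643810 to 14781066, was called, at 6218 in the *gsp* mutant, 5577 in the *gsp* sibling, 4094 in the *rhs* mutant and 6272 in its sibling. The *rhs* mutant was well below the 3 other libraries, with a ratio of 0.653 (0.627 to 0.679) beside 1.11 in *gsp* (1.08 to 1.16). *nrp1a* was at 7872, 7298, 6540 and 9093 in that order (ratios 1.08 and 0.719), and *nrp1b* at 2047, 1940, 1383 and 1884 (ratios 1.06 and 0.734). *nrp2a* had ratios of 0.870 and 0.799, and its model overlaps another row.

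Slits and their receptors were all measured, 4 genes each. Among the receptors, *robo2* is the zebrafish gene known as *astray*, needed for retinal axons to find the tectum, and lies on chromosome 15 from 37843664 to 38213653. It was at 5228 in the *gsp* mutant, 5446 in the *gsp* sibling, 3859 in the *rhs* mutant and 6563 in its sibling. The *gsp* libraries were level and the *rhs* libraries lay on either side of them, with ratios of 0.960 in *gsp* (0.924 to 0.997) and 0.588 in *rhs* (0.565 to 0.612). Against the *gsp* sibling the *rhs* mutant was at 0.709. *robo1* was at 5880, 5266, 4442 and 5790 (ratios 1.12 and 0.767), and *robo3*, which acts in commissural axons, at 9619, 8817, 7332 and 9807 (ratios 1.09 and 0.748). *robo4*, the endothelial member, was at 5091, 5516, 5905 and 6997, with ratios of 0.923 and 0.844, the smallest departure from 1 in *rhs* among the 4. The median log2 ratio of the Robo genes was 0.03 in *gsp* and -0.40 in *rhs*.

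*slit1b*, on chromosome 22 from 37590513 to 37631397, was the called ligand of this group. It was at 1472 in the *gsp* mutant, 1495 in the *gsp* sibling, 1813 in the *rhs* mutant and 2757 in its sibling. Here the *rhs* sibling stood apart and the *rhs* mutant was above both *gsp* libraries. The *rhs* ratio of 0.658 (0.619 to 0.698) turned to 1.21 with the *gsp* sibling as control, the only called direction to turn. *slit2*, the midline repellent, was at 4047, 3403, 4476 and 4453 in the usual order of libraries (ratios 1.19 and 1.01). *slit1a* had ratios of 1.12 and 0.869, and *slit3* 1.07 and 0.848. The models of *slit2*, *slit3* and *robo3* overlap other rows, among them microRNA rows within *slit2* and *slit3*.

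Of the netrins, only the pair *ntn1a* and *ntn1b*, expressed in the floor plate, passed the minimum. *ntn1b*, on chromosome 3 from 25812902 to 25914693, was at 2276 in the *gsp* mutant, 2155 in the *gsp* sibling, 1703 in the *rhs* mutant and 2674 in its sibling. The *rhs* mutant was the lowest library and the *rhs* sibling the highest, with ratios of 1.06 in *gsp* (0.995 to 1.12) and 0.637 in *rhs* (0.599 to 0.677). *ntn1a* followed the same order of libraries in *rhs*, at 2563, 2715, 2329 and 3217 (ratios 0.944 and 0.724), and was not called. The repulsive netrin receptor *unc5b*, also expressed in endothelium, went the other way, at 936, 1138, 1423 and 1272 (ratios 0.822 and 1.12). The main row of *unc5c* had ratios of 0.944 and 0.981. The attractive receptor *dcc* is not in the symbol rule and its rows could not be followed: 3 of 5 were at the floor in every library, and the only row detected in all 4 was at 107, 109, 75.5 and 171. *unc50*, apart from these, was at 2169, 3041, 2713 and 2626, with ratios of 0.713 and 1.03.

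The ratio in *rhs* was below that in *gsp* for 45 of 55 axon guidance genes (81.8%, beside 57.3% of all rows), with a median difference of -0.30 on the log2 scale, beside -0.06 over all rows. This was not particular to them among the gene lists described below. The median difference was -0.63 in neuron markers, -0.79 in muscle markers and -0.61 in axonal adhesion and growth cone genes. Guidance genes outside the families had -0.48, progenitor and glia markers -0.41, endothelial markers -0.41 and neural crest markers -0.28. Periderm and keratinocyte markers went the other way, at 0.64. Receptors stood further apart between the lines than ligands: the median difference was -0.50 over 23 receptor genes and -0.26 over 31 ligand genes. By family it was -0.25 in ephrins A and -0.43 in EphA receptors, and -0.19 in ephrins B and -0.17 in EphB receptors. Semaphorins had -0.09, plexins -0.52 and neuropilins -0.55. Slits were at -0.35 and Robo receptors at -0.54. Netrins were at -0.56 and Unc5 receptors at 0.25, so the order did not hold in every family. The sibling libraries enter this difference, and they differed by class too. The median log2 ratio of the *gsp* over the *rhs* sibling was -0.17 over the receptors and -0.004 over the ligands. It was below 0 in 18 of 23 receptors and 16 of 31 ligands. The part of the siblings in the gap between the classes was not tested. In *gsp* 7 of the 23 receptor genes were below 1, beside 65.4% of all rows. Their median log2 ratio was 0.09, beside -0.05 for the ligands. In *rhs* the 2 medians were nearly equal, at -0.31 and -0.30. A *rhs* ratio at least 1.5-fold below the *gsp* ratio was seen in 6 genes, *epha4b*, *robo2*, *ntn1b*, *nrp2b*, *plxnd1* and *sema6a*, which is 10.9% beside 9.98% of all rows. The opposite was seen in 0 genes, beside 5.11% of all rows. The 2 lines do not share a library, but mutation and line cannot be told apart in this contrast.

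**Figure D3:**
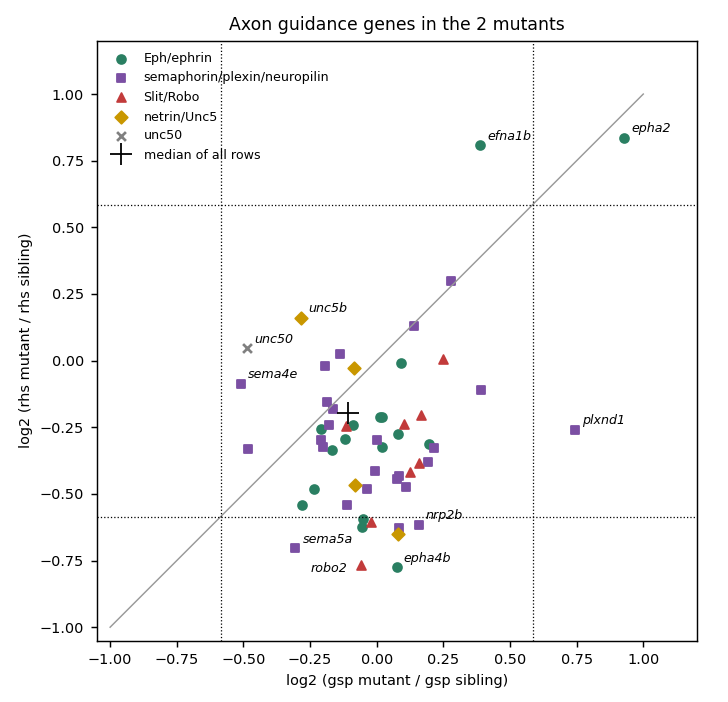
Log2 ratio of mutant over sibling in *gsp* (horizontal axis) against that in *rhs* (vertical axis) for the 55 axon guidance genes, with the symbol giving the signalling system and the cross the median of all rows. Dotted lines mark 1.5-fold and the grey line equal ratios; 45 of 55 genes lie below the grey line, *epha2* alone lies past 1.5-fold upward in both, and *plxnd1* lies farthest below the line.

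The sibling libraries differed too, which bears on every ratio. Between them (*gsp* over *rhs*) 1 of 55 axon guidance genes was called higher, beside 8.58% of all rows, and 4 were called lower, beside 9.15%. The gene called higher was *epha7*, at 687 and 677 in the *gsp* mutant and sibling and 281 and 352 in the *rhs* mutant and sibling, a sibling ratio of 1.93 (1.69 to 2.19). *plxnb1b*, a B-type plexin, stood farthest in the other direction, at 411 and 461 in *gsp* and 1755 and 1989 in *rhs*, with a sibling ratio of 0.232 (0.209 to 0.257). In both genes mutant and sibling of a line were close, with mutant ratios of 1.01 and 0.798 for *epha7* and 0.892 and 0.882 for *plxnb1b*. The 3 others called lower were *slit1b* at 0.542, *plxna3* at 0.646 and *sema3ga* at 0.660, and just outside were *plxna4* and *epha2*, both at 0.669. Among 15 semaphorins 13 were at least as high in the *gsp* sibling, whereas all 4 Slits and all 4 Robo genes were lower there. Over all rows, 57.6% were lower in the *gsp* sibling.

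**Figure D4:**
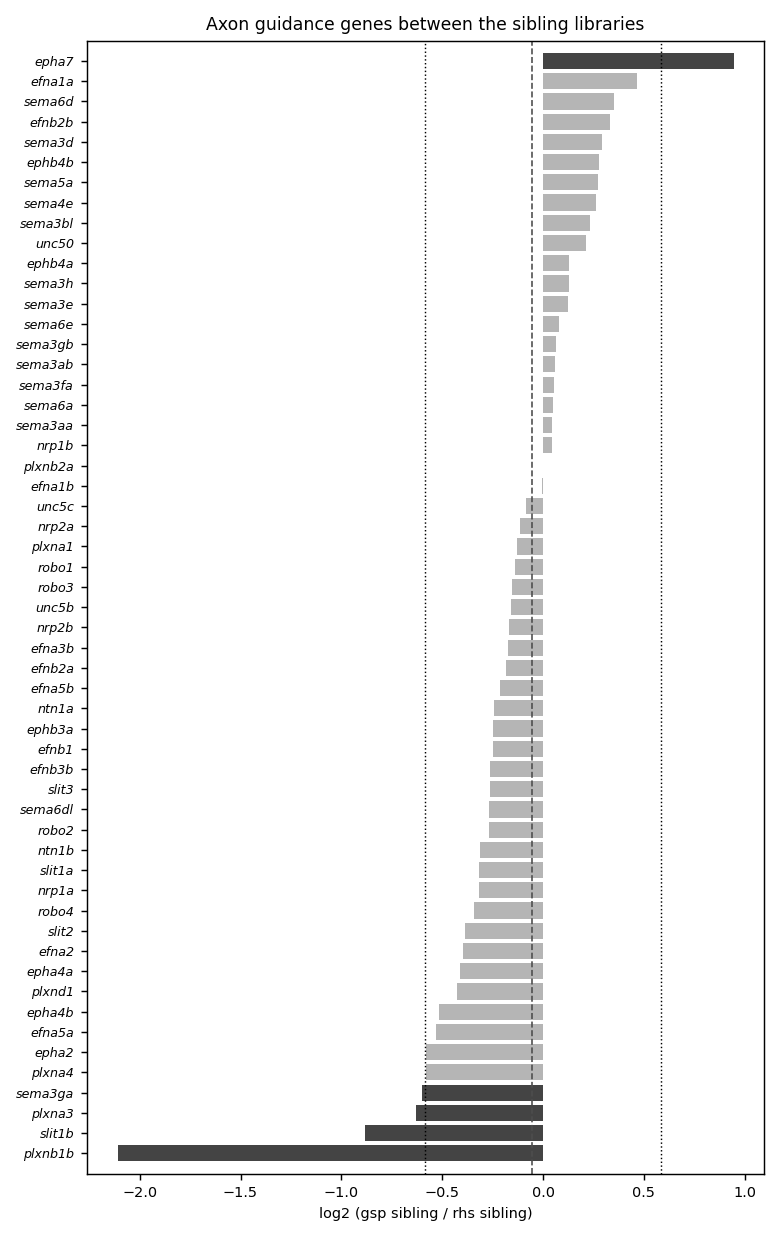
Log2 ratio of the *gsp* sibling over the *rhs* sibling for the 55 axon guidance genes, in order of size, 1 library each and no error bars. Dotted lines mark 1.5-fold and the dashed line the median of all rows, -0.06; dark bars are the 5 genes past 1.5-fold, of which *plxnb1b*, at -2.11, is by far the longest and *epha7*, at 0.94, the only 1 to the right.

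Looked at library by library, the *rhs* mutant was the lowest of the 4 in 29 of 55 genes (52.7%, beside 37.9% of all rows) and the *rhs* sibling the highest in 26 (47.3%, beside 42.1%). The *rhs* mutant was below both siblings in 34 genes (61.8%). The share over all rows was not taken for this count, so it is not read as particular to these genes. Both mutants were below both siblings in 14 genes (25.5%, beside 33.4% of all rows). Of the 9 genes called lower in *rhs*, the *rhs* mutant was the lowest library in 8 and the *rhs* sibling the highest in 7. These genes were picked for a low *rhs* mutant beside its own sibling, which by itself favours such counts. The shares among all rows called lower in *rhs* were not taken, so no conclusion is drawn from them.

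Zebrafish keep many guidance genes in duplicate, and 10 such a and b pairs had ratios. The copies of a pair differed by a median of 0.18 in log2 ratio in *gsp* and 0.24 in *rhs*, beside 0.25 between the siblings. The largest difference was that of *efna1a* and *efna1b*, 0.56 in *gsp* and 1.14 in *rhs*, the only pair past 1.5-fold in *rhs*. The copies *nrp1a* and *nrp1b* were the closest in *rhs*, with log2 ratios of -0.48 and -0.45. In *epha4*, *slit1*, *ntn1* and *nrp2* the b copy was called lower in *rhs* and the a copy was not. The copies of these pairs still differed by less than 1.5-fold, from 0.18 to 0.46 in log2 ratio. After median-centring 0 of these calls remained. *efna5a* and *efna5b*, which are not among the 10 because *efna5b* has 2 rows, were split in the same way.

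Other genes of the same pathways are set here beside the shares of all rows. In *gsp* 4.8% of all rows were called higher and 4.34% lower. In *rhs* 6.14% were called higher and 11.6% lower, with 4.67% lower after median-centring. Of 32 rows of guidance receptors, ligands and effectors outside these families, 0 were called in *gsp*, with a median log2 ratio of -0.02, and 12 were called lower and 0 higher in *rhs*, with a median of -0.45. After median-centring 4 of the 12 calls in *rhs* were left. The 12 included all 6 measured genes of the Dpysl and Crmp1 proteins, which relay semaphorin signals to microtubules, at *rhs* ratios of 0.471 to 0.660 and a *gsp* median log2 ratio of 0.06. Of these 6, 2 were called after median-centring, and this grouping was made after the values were seen. *crmp1* was at 1712 in the *gsp* mutant, 1654 in the *gsp* sibling, 706 in the *rhs* mutant and 1500 in its sibling (ratios 1.03 and 0.471). *chn1*, a Rac regulator downstream of Eph receptors, was called lower in *rhs* in both its rows, at 0.594 and 0.537. The row at 0.594 differed more by line, at 307 in the *gsp* mutant, 326 in the *gsp* sibling, 1070 in the *rhs* mutant and 1801 in its sibling, so that both *rhs* libraries stood above both *gsp* libraries. *dscam*, a netrin receptor, was called lower in *rhs* at 0.561. The chemokine gene *cxcl12b* was at 4360, 4473, 5741 and 9016, with ratios of 0.975 and 0.637. Of 24 rows of axonal adhesion and growth cone genes, 12 were called lower and 0 higher in *rhs*, with a median log2 ratio of -0.57 and 7 lower after median-centring, and 1 was called lower in *gsp*, with a median of -0.04. Among them *cntn1b*, a contactin of axons, was at 0.497 in *rhs*, and *islr2*, at 28453, 27478, 16463 and 28851, at 0.571.

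Neuron markers had a lower median ratio in *rhs* than the axon guidance genes. Of 26 rows with ratios, 20 were called lower and 0 higher in *rhs*, beside 11.6% and 6.14% of all rows. Their median log2 ratio was -0.76. After median-centring 13 of the lower calls were left, beside 4.67% of all rows. In *gsp* 0 were called in either direction, with a median of -0.09, beside 4.8% of all rows called higher and 4.34% lower. Of the 28 rows of these markers in the table, 2 were at the floor in every library, both of the synapsin gene *syn2b*. The summed estimated count of the markers was 206490 in the *gsp* mutant, 238600 in the *gsp* sibling, 154616 in the *rhs* mutant and 257194 in its sibling. A large part of each sum was the tubulin gene *tubb5*, at 83146, 102341, 66330 and 103700. *stmn2a* and *stmn2b*, called lower in *rhs* at 0.544 and 0.525, are also in the list of axonal adhesion and growth cone genes. *elavl4*, an RNA-binding protein of neurons, was at 12472, 13651, 8183 and 16100 (*rhs* ratio 0.508), and *isl2b*, a transcription factor of retinal ganglion and sensory neurons, at 1912, 2025, 867 and 1863 (*rhs* ratio 0.465). The pan-neuronal *elavl3* was not called, at 5019, 3983, 4321 and 5777 (ratios 1.26 and 0.748). The median *rhs* ratio of the axon guidance genes lay closer to 1 than that of the neuron markers, and the part of the latter in the former was not tested.

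Markers of other tissues that express guidance genes differed in their own ways. The shares of all rows to set beside them are 4.8% called higher and 4.34% lower in *gsp*. In *rhs* they are 6.14% higher and 11.6% lower, with 4.67% lower after median-centring. Of 19 neural progenitor and glia markers, 3 were called higher and 0 lower in *gsp*, with a median log2 ratio of 0.15, and 0 higher and 3 lower in *rhs*, with a median of -0.23 and 1 lower after median-centring. Of 15 endothelial markers, 1 was called higher and 4 lower in *rhs*, with a median of -0.47 and 0 lower after median-centring. Their summed counts were 24328, 23095, 19602 and 24591 in the usual order of libraries, and *tie1* and *stab1* were at the floor in all 4. Of 20 skeletal muscle markers, 7 were called higher in *gsp* and 5 lower in *rhs*, with medians of 0.25 and -0.49, and 2 were lower in *rhs* after median-centring. Of 8 neural crest and pigment markers, 0 were called in *gsp* and 1 was called lower in *rhs*, with medians of -0.06 and -0.35, and 0 were lower in *rhs* after median-centring. Of 14 periderm and keratinocyte markers, 4 were called higher and 5 lower in *gsp*, and 6 higher and 0 lower in *rhs*, with medians of -0.20 and 0.39. The list was mixed: 8 of the 14 markers were below 1 in *gsp* and 2 in *rhs*. The skin claudin *cldne* had *gsp* and *rhs* ratios of 2.97 and 4.38, and *cdh1*, the gene of E-cadherin, 1.82 and 2.21. The keratin gene *krt4* was at 0.535 in *gsp* and 1.16 in *rhs*. The part of these tissues in the ratios of *epha2*, *efna1b* or any other axon guidance gene was not tested.

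**Figure D5:**
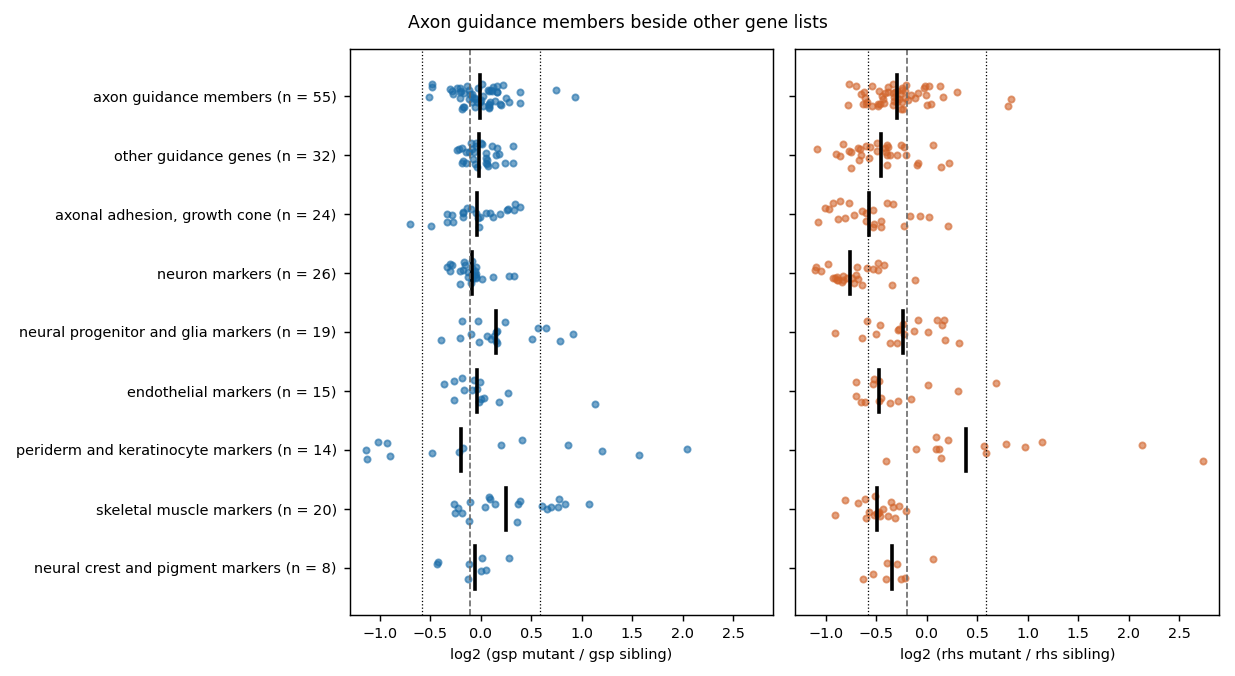
Log2 ratio of mutant over sibling for the axon guidance genes and 8 other gene lists, in *gsp* (left) and *rhs* (right), 1 point per row of the table and a black bar at the median of the list. The vertical scatter is only to separate the points, dotted lines mark 1.5-fold and the dashed line the median of all rows; in *rhs* the medians run from -0.76 in neuron markers to 0.39 in periderm markers, with the axon guidance genes at -0.30.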

How the data were processed

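RNA of 4 pools of larvae at 48 hpf was sequenced, 1 library per condition. After read trimming, the authors mapped to danRer7 with TopHat 2.0 and obtained transcript values from DEGseq. The deposited values, headed raw and called RPKM in the study's methods, sum to at least 106188690 per library and were read as estimated counts, unscaled and floored at 1, although the plan allowed for RPKM. The authors' normalized columns hold log2 values shifted per library and centred on each row. The authors' own fold changes, in 2 further sheets, were not used.

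Python 3.11.15, pandas 2.3.3, numpy 2.4.6 and scipy 1.17.1 were used, and TMM factors came from edgeR 4.0.16 in R 4.3.3, on rounded values and without any fitted model. Ratios were taken over rows with at least 100 in all 4 libraries and called at 1.5-fold, near the 1.48-fold of the study. Exact Clopper-Pearson intervals at 95% cover counting error only, and pools give no spread between animals. The code for ratios, calls and intervals was run on simulated Poisson counts with set fold changes. That setting cannot show whether the deposited values behave as counts. Alternatives were minimums of 10 and 500, pseudocounts of 10 and 100, thresholds of 2-fold and 1.48-fold, 4 other scalings, 2 other controls, 1 row per symbol, and siblings within 1.5-fold.

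The axon guidance genes and the 8 gene lists were chosen with earlier results of these data known. Named were the called genes, the highest and lowest of each family, the 5 farthest apart in each direction between the siblings, and known ligand and receptor pairs, with *sema3e*, *sema4e*, *sema7a*, *sema3h* and the rows at the floor added after their values were seen. Of 85 rows, 84 matched a RefSeq gene by identifier, and 18 of these now carry another symbol there, such as *epha2a* for *epha2*. Symbols are printed as deposited, and some have moved between genes. The row printed as *sema6d* is now *sema6ca*. The gene now called *sema6d* is the row deposited as *sema6dl*, at ratios of 1.00 in *gsp* and 0.814 in *rhs*. The sequences of these genes were not used here. No gene lengths were used, so levels are not compared between genes.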

Additional observations from a re-analysis of the deposited data

Results flagged for a closer look

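In 13 of the 55 axon guidance genes the ratio of mutant to sibling lay on opposite sides of 1 in the lines, with both counting intervals clear of 1. Their median-centred log2 ratios had opposite signs too, but only the sign was checked there, without an interval. These genes make up 23.6%, beside 11% of all rows (1498 of 13633) by the same rule. A counting interval narrows as counts rise, so the rule passes well counted rows more easily. Of the 55 genes, 49 had at least 500 in all 4 libraries, and shares at like counts were not taken. With 1 library per condition the difference between the lines was not tested, and line and mutation cannot be told apart. In 12 of the 13 genes (21.8%, beside 6.61% of all rows) *gsp* was above 1 and *rhs* below. The *rhs* minus *gsp* difference in log2 ratio was -1.0 for *plxnd1*, -0.77 for *nrp2b*, -0.71 for *sema6a*, -0.58 for *nrp1a*, -0.57 for *plxna4*, -0.55 for *plxna3*, -0.55 for *robo3*, -0.54 for *robo1* and -0.51 for *epha4a*. It was smaller in size for *slit1a* at -0.37, *efna5a* at -0.36 and *slit3* at -0.34. After median-centring the *rhs* log2 ratio was small for *slit1a* (-0.006), *slit3* (-0.04), *plxnd1* (-0.06) and *efna5a* (-0.08). The netrin receptor gene *unc5b* alone (1.82%, beside 4.38% of all rows) had *gsp* below 1 and *rhs* above, with a difference of 0.44. Of the 13, 9 encode receptors or co-receptors, beside 23 of the 55 genes with ratios. Among the 13, 3 were called in a mutant: *plxnd1* in *gsp*, and *nrp2b* and *sema6a* in *rhs*.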

How the results depend on the processing

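The 9 lower calls in *rhs* were the result that changed most with the scaling: 0 with median-centring, 2 with the authors' normalized columns, 3 with TMM and 4 with division by the library total (4.67%, 5.38%, 6.94% and 8.81% of all rows), since these scalings raise all *rhs* ratios together. At a threshold of 2-fold, 0 genes were higher in *gsp* (1.88% of all rows), 0 higher (2.80%) and 0 lower (1.69%) in *rhs*, and 0 higher (4.83%) and 1 lower (4.19%) between the siblings. With the other line's sibling as control, 1 gene was higher (11.3%) and 3 lower (14.9%) in *gsp*, and 4 were higher (11.3%) and 8 lower (16.9%) in *rhs*. Of these 8, only *sema5a* and *sema6a* were among the 9, the other 6 being *efna1a*, *efnb2b*, *epha7*, *sema3bl*, *sema3h* and *sema6d*, and *slit1b* turned to 1.21. With the mean of both siblings, 1 was higher (7.85%) and 1 lower (8.10%) in *gsp*. A minimum of 10 gave 1 lower in *gsp* (5.79%), and a minimum of 500 gave 1 higher in *gsp* (3.79%) and 0 higher between the siblings (5.41%). With no minimum and a pseudocount of 100, 2 were higher (6.47%) and 7 lower (6.45%) between the siblings, where median-centring gave 2 lower (8.13%) and the authors' normalized columns 7 lower (10.8%). Of the called genes, *efna1b* (1.72 to 2.01) and *epha2* in *rhs* (1.77 to 2.67) were past 1.5-fold in 10 of 10 settings, *epha2* in *gsp* (1.27 to 2.08) in 9 of 10, *robo2* and *sema5a* in 8 of 10, *epha4b* in 7 of 10, *plxnd1* in 7 of 9, *sema6a* in 6 of 10, *ntn1b* in 5 of 10, *efnb1* and *nrp2b* in 4 of 10, *slit1b* in 3 of 10 and *efna5b* in 1 of 9. The minimums of 10 and 500 leave each ratio as it is, so a called gene that they keep is always past 1.5-fold there. With any other scaling or control, *efnb1*, *nrp2b* and *slit1b* were not past it. *efna5b* was past it only with the minimum of 10. No paired analysis was possible because each group has 1 library, and for the same reason no library could be left out.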
